A study of Mus musculus with 8 samples.

Results

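The genes described here encode the C1q chains of complement (*C1qa*, *C1qb* and *C1qc*), the transcription factor SpiC (*Spic*), the secreted protein AIM (*Cd5l*), the iron exporter ferroportin (*Slc40a1*), haem oxygenase 1 (*Hmox1*), the receptors MerTK and AXL (*Mertk* and *Axl*) and the adhesion molecule VCAM1 (*Vcam1*). They are 10 of the 54188 genes in the count table, were chosen by symbol as genes of splenic macrophages and of iron handling, are all annotated as protein coding, and were all among the 17650 genes that passed the filter on low counts. RNA was sequenced from myeloid cells sorted by CD11b and Gr-1 from the spleen (SP) and bone marrow (BM) of sanroque mice aged 20 weeks, a strain on the C57BL/6 background that is homozygous for the san allele of *Roquin* and develops lupus-like autoimmunity. Libraries 5 and 6 are SP Gr-1hi, 7 and 8 SP Gr-1lo, 9 and 10 BM Gr-1hi, and 11 and 12 BM Gr-1lo. The labels call the Gr-1hi cells G-MDSC, the granulocytic kind of myeloid-derived suppressor cell, and all mice female. All 4 groups carry the san/san genotype and none was treated, so the libraries compare tissues and subsets within the disease model and hold no wild-type cells. The study's methods describe the 2 libraries of a group as independent biological replicates, so p-values measure the spread between these libraries. The BM cells are described as autologous, but the labels link no library to a mouse.

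Macrophages of the splenic red pulp engulf aged red blood cells, break haem down with haem oxygenase and return the iron to the blood through ferroportin. Their identity depends on SpiC, and they carry VCAM1. C1q and AIM bind dying cells and debris, and MerTK and AXL are receptor tyrosine kinases that recognise apoptotic cells through bridging proteins. These genes are not exclusive to macrophages.

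The depth ranged from 33453580 to 68316154 counted reads. Levels are given as CPM, a gene's count scaled to a common library size by edgeR's TMM method, with the SD of 2 libraries. A gene without counts may still have had up to 3 of them, or 0.0348 to 0.124 CPM, by counting error alone. *Ly6g*, which encodes a Gr-1 antigen, was at 330 to 801 CPM in Gr-1hi libraries and at 3.07 to 8.23 CPM in Gr-1lo libraries, and *Itgam*, for CD11b, at 2739 to 4904 and 734 to 983 CPM. Counts of *Xist* were 12032 for library 5, 9898 for library 7 and no more than 5 for any other. *Ddx3y*, on the Y chromosome, had no count in library 5 and 33.7 to 82.7 CPM in the other 7, which goes against the female label, and no BM library matched library 5 in this respect. Library 7 thus had counts of both *Xist* and *Ddx3y*, and libraries 5 and 6 of the same group differed in both. The cause was not tested. The results are therefore also given without libraries 5 and 7. The threshold of a call was an adjusted p of 0.05 with a fold change (FC) of 2 for tissues, and 0.01 with an FC of 8 for subsets. The interaction described below was held to the threshold for tissues.

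The name splenic macrophage was checked against 12 other markers of these cells, 11 of which passed the filter. Between subsets in SP, 9 of the 11 had a positive log2 FC (higher in Gr-1hi cells, as most of the 10 genes were) and 2 a negative one, with a median of 1.31. *Treml4*, for a receptor of splenic myeloid cells, was at 68.2 CPM in SP Gr-1hi and 28.6 CPM in SP Gr-1lo on average, and *Itgad*, for the integrin CD11d of red pulp macrophages, at 8.25 and 1.36 CPM. The other 2 ran the opposite way. *Adgre1*, the gene of F4/80, was at 137 ± 17.6 CPM in SP Gr-1lo and 50.8 ± 15.01 CPM in SP Gr-1hi. *Siglec1*, a marker of marginal metallophilic macrophages, was at 31.8 ± 1.93 CPM in SP Gr-1lo and 3.6 ± 0.316 CPM in SP Gr-1hi. *Marco* and *Timd4* did not exceed 0.766 and 0.512 CPM in any library, and *Cd209b* did not pass the filter and had no count in 7 of 8 libraries. Summed over the 12 markers, the level was 142 to 168 CPM in SP Gr-1hi, 197 to 225 in SP Gr-1lo, 85.8 to 112 in BM Gr-1hi and 120 to 145 in BM Gr-1lo, and *Adgre1* made up most of this sum in Gr-1lo cells. Since the defining markers went both ways or were near 0, the genes are named singly below and not as a cell type.

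Most of the 10 genes were higher in SP than in BM. In Gr-1lo cells 7 of the 10 were called, all higher in SP, where 4.06% of all tested genes were called in either direction and 3.84% as higher. In Gr-1hi cells 6 were called, again all higher in SP, where 15.5% of all tested genes were called and 14% as higher. The median log2 FC of the 10 genes was 2.33 in Gr-1lo cells and 1.22 in Gr-1hi cells, against -0.013 and 0.030 over all tested genes. Libraries of SP and BM did not overlap for any of the 10 genes. In Gr-1lo cells 9 were higher and 1 lower in SP, where 27.1% of all tested genes were higher and 32.5% lower without overlap, and in Gr-1hi cells all 10 were higher, against 35.9% and 31.9%. *C1qa*, *C1qb*, *C1qc*, *Spic*, *Cd5l* and *Mertk* were called in both subsets and *Axl* in Gr-1lo cells. Without libraries 5 and 7, 6 genes were called in Gr-1lo cells, with *Mertk* lost (adjusted p = 0.0565, the quasi-likelihood test of edgeR with Benjamini-Hochberg adjustment), and 6 in Gr-1hi cells, with *Mertk* lost and *Vcam1* gained. In bulk libraries, fewer cells of a type and less RNA per cell cannot be told apart.

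**Figure D1:**
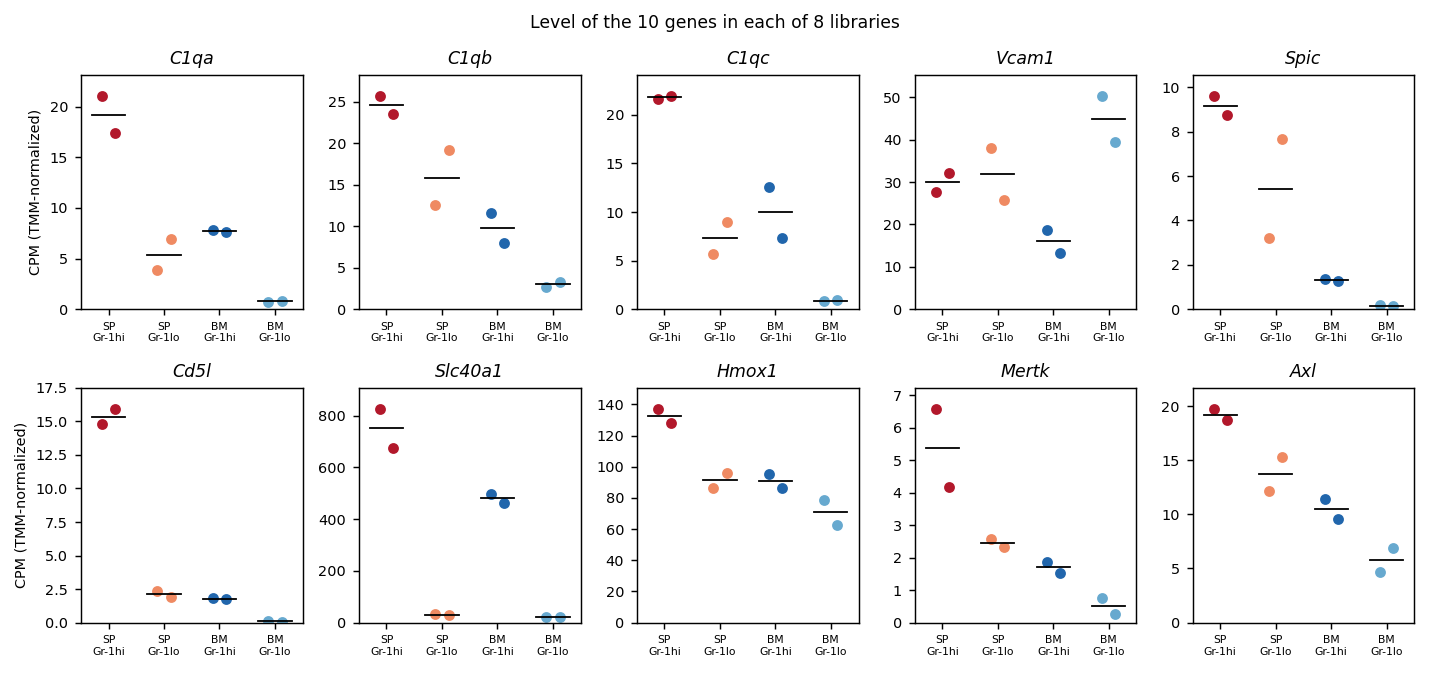
Level of each of the 10 genes (vertical axis, TMM-normalized CPM, starting at 0) in the 4 groups, with 1 point per library and a line at the group mean. Most genes are highest in SP Gr-1hi and lowest in BM Gr-1lo, *Slc40a1* separates the subsets, and *Vcam1* is highest in BM Gr-1lo.

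Between the subsets, 4 of the 10 genes were called in BM, all higher in Gr-1hi cells (*C1qa*, *C1qc*, *Cd5l* and *Slc40a1*), where 16.7% of all tested genes were called, 6.56% as higher and 10.1% as lower. In SP, *Slc40a1* was the 1 gene called, where 7.37% of all tested genes were called, 4.44% as higher and 2.93% as lower. The median log2 FC of the 10 genes was 2.35 in BM and 0.94 in SP, against -0.18 and -0.088 over all tested genes. Libraries of the subsets did not overlap in BM for any of the 10 genes, 9 higher and 1 lower in Gr-1hi cells, and in SP for 9, all higher, where 40.6% and 40.6% of all tested genes were higher and 48.2% and 45.6% lower without overlap in BM and SP. With the tissue threshold, a rule added after the values were seen, 8 genes were called in BM (7 higher and 1 lower) and 5 in SP, where 57.3% (24.2% higher and 33.1% lower) and 49.6% (22.3% higher and 27.4% lower) of all tested genes were called. Without libraries 5 and 7, 4 genes were called in BM and 2 in SP, *Cd5l* being the second. These comparisons depend on how libraries are scaled, since the median log2 FC of all genes between Gr-1hi and Gr-1lo cells was -0.99 in BM and -0.69 in SP when libraries were scaled by their totals alone.

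**Figure D2:**
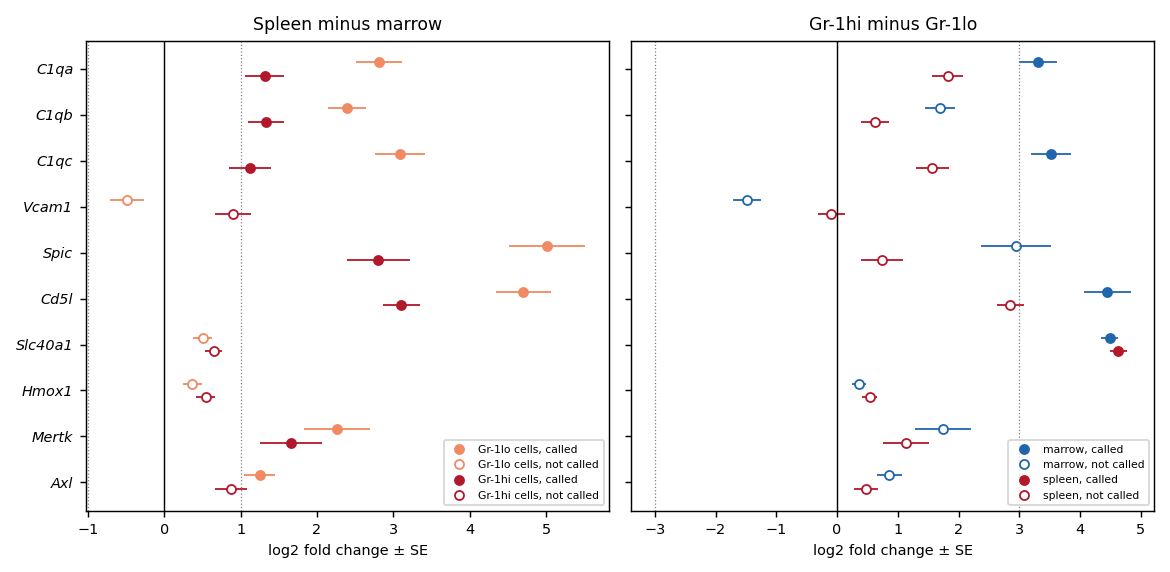
Log2 FC with its SE (horizontal axis) of each gene for SP minus BM (left) and Gr-1hi minus Gr-1lo (right), with filled points for called genes and dotted lines at the fold threshold of each comparison (2-fold left, 8-fold right). *Spic* and *Cd5l* have the highest values on the left, and *Slc40a1* and *Cd5l* the highest on the right.

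The C1q chains were expressed in the order of SP Gr-1hi first and BM Gr-1lo last. They lie side by side on the minus strand of chromosome 4, in a stretch of 18675 bases from 136880129 to 136898803 (GRCm38). *C1qa*, for the A chain, was at 21.1 and 17.4 CPM in SP Gr-1hi, 3.86 and 6.91 in SP Gr-1lo, 7.78 and 7.64 in BM Gr-1hi, and 0.697 and 0.850 in BM Gr-1lo. *C1qc*, for the C chain, was at 21.6 and 21.9 CPM in SP Gr-1hi, 5.66 and 8.93 in SP Gr-1lo, 12.6 and 7.35 in BM Gr-1hi, and 0.819 and 0.907 in BM Gr-1lo. Both were lowest in BM Gr-1lo and highest in SP Gr-1hi, with no overlap between tissues within a subset or between subsets within a tissue. *C1qb*, for the B chain, was at 25.7 and 23.5 CPM in SP Gr-1hi, 12.6 and 19.1 in SP Gr-1lo, 11.6 and 7.97 in BM Gr-1hi, and 2.72 and 3.31 in BM Gr-1lo. Its SP Gr-1lo libraries lay above both BM groups, unlike those of *C1qa* and *C1qc*, which overlapped with or lay below BM Gr-1hi.

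In Gr-1lo cells, the SP to BM log2 FC of *C1qa* was 2.81 (SE 0.30, adjusted p = 0.00124), that of *C1qb* 2.40 (SE 0.25, adjusted p = 0.00119) and that of *C1qc* 3.08 (SE 0.33, adjusted p = 0.00125) in edgeR's quasi-likelihood test (Benjamini-Hochberg adjustment). In Gr-1hi cells by the same test, these values were 1.32 (SE 0.25, adjusted p = 0.00591), 1.33 (SE 0.24, adjusted p = 0.00456) and 1.12 (SE 0.27, adjusted p = 0.0153). All 3 chains were thus higher in SP in both subsets, with larger folds in Gr-1lo cells. The call of *C1qc* in Gr-1hi cells was lost without library 5, 6 or 10, with log2 FCs of 1.05, 1.04 and 0.70 and adjusted p of 0.0719, 0.0518 and 0.0867 in the same test. Between subsets in BM, *C1qa* and *C1qc* were higher in Gr-1hi cells by log2 FCs of 3.31 (SE 0.31, adjusted p = 1.34e-05) and 3.53 (SE 0.33, adjusted p = 1.64e-05). With libraries scaled by their totals these were 2.5 and 2.72, under the 8-fold threshold. In SP, the log2 FCs were 1.82 and 1.57, also under it.

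*C1qb* moved less between subsets than its neighbours, with a log2 FC of 1.69 (SE 0.25) in BM and 0.63 (SE 0.23) in SP. The ratio of *C1qb* to *C1qa* counts within a library was 1.22 and 1.35 in SP Gr-1hi, 1.49 and 1.04 in BM Gr-1hi, 3.26 and 2.77 in SP Gr-1lo, and 3.91 and 3.89 in BM Gr-1lo. All 4 Gr-1lo libraries were above all 4 Gr-1hi libraries, by 2.71-fold on average, and the ratio of *C1qb* to *C1qc* was 2.60-fold higher in the same way. The *C1qa* to *C1qc* ratio ranged from 0.617 to 1.04 and overlapped between the subsets. A ratio within a library does not depend on scaling. The ratios were chosen after the values had been seen and are given as a description, with no test.

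**Figure D3:**
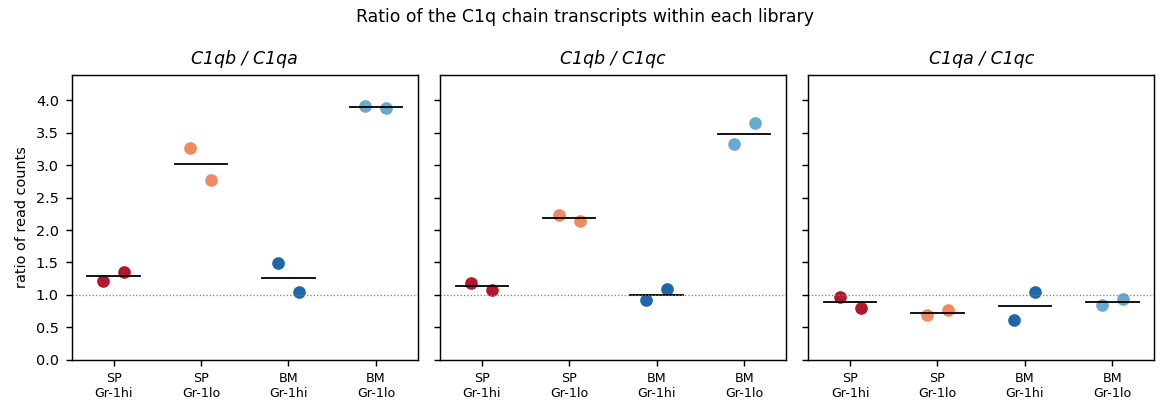
Ratio of read counts between pairs of C1q chain genes within each library (vertical axis from 0, dotted line at 1), with 1 point per library and a line at the group mean. The *C1qb* to *C1qa* and *C1qb* to *C1qc* ratios are above 2 in every Gr-1lo library and below 1.5 in every Gr-1hi library, and the *C1qa* to *C1qc* ratio overlaps between the subsets.

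*Spic* and *Cd5l* had the largest differences between SP and BM. *Spic* (chromosome 10 from 88674772 to 88685015, minus strand), for the factor that red pulp macrophages depend on, was at 9.61 and 8.74 CPM in SP Gr-1hi, 3.21 and 7.67 in SP Gr-1lo, 1.35 and 1.28 in BM Gr-1hi, and 0.205 and 0.132 in BM Gr-1lo. All 4 SP libraries were above all 4 BM libraries, and the SP Gr-1lo libraries differed from each other by more than those of any other group. Its log2 FC between SP and BM was 5.01 (SE 0.50, adjusted p = 0.00103) in Gr-1lo cells and 2.80 (SE 0.41, adjusted p = 0.00200) in Gr-1hi cells in edgeR's quasi-likelihood test (Benjamini-Hochberg adjustment). The values in BM Gr-1lo rest on 10 and 7 counts. Between subsets, its log2 FC was 2.95 (SE 0.57) in BM, just under the 8-fold threshold, and 0.74 (SE 0.35) in SP. It was called in BM with RLE scaling (3.10), with DESeq2 (3.12) and without library 5, 6, 10 or 11 (3.03 to 3.28).

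*Cd5l* (chromosome 3 from 87357881 to 87371073, plus strand), for a secreted protein of tissue macrophages, was at 14.8 and 15.9 CPM in SP Gr-1hi, 2.36 and 1.91 in SP Gr-1lo, 1.83 and 1.73 in BM Gr-1hi, and 0.123 and 0.0378 in BM Gr-1lo. SP Gr-1hi stood far above the other groups, SP Gr-1lo and BM Gr-1hi were close together without overlap, and BM Gr-1lo had 6 and 2 counts. The log2 FC between SP and BM was 4.70 (SE 0.36, adjusted p = 0.000396) in Gr-1lo cells and 3.10 (SE 0.24, adjusted p = 0.000140) in Gr-1hi cells by the same test. Between subsets it was 4.45 in BM (SE 0.38, adjusted p = 8.09e-06). In SP it was 2.85 (SE 0.22, adjusted p = 7.41e-06), and the FC of 7.22 missed the 8-fold threshold. Leaving out 1 library in turn gave a Gr-1lo log2 FC between SP and BM of 4.08 (without library 12) to 5.71 (without library 11), and its call was kept each time.

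The upstream sequences of 3 of the genes are shown because these genes were higher in SP in both subsets and hold the letters TGCTGA, one arm of the element that MAF family factors bind. Promoter windows of 300 bases from RefSeq (GRCm38.p6) covered 6 of the 10 genes, namely *C1qb*, *C1qc*, *Spic*, *Cd5l*, *Mertk* and *Axl*, and those of *C1qa*, *Vcam1*, *Slc40a1* and *Hmox1* were not analysed here. Searched on both strands, TGCTGA was in the windows of *C1qb*, *Spic* and *Cd5l* and in 19.5% of 32851 promoters. GAGGAAGT, a core of PU.1 and SpiC sites, was in the window of *C1qc* and in 3.2% of promoters. TGAGTCA, the core of BACH1, NRF2 and AP-1 sites, was in none of the 6 windows and in 5.2% of promoters. Only in *Cd5l* among the 6 did TGCTGA stand on both strands with 2 bases between its copies, from 54 to 41 bases before the RefSeq start, and 2 of all promoters (0.00609%) had this arrangement, which was searched for after the sequence had been seen. A match is a description of letters and not a binding site. The *Spic* sequence shown lies inside the gene span given above, so it is upstream only of an internal RefSeq start. The stretches are given 5′ to 3′ on the gene's strand with the TGCTGA letters of either strand in capitals, from chr3:87357767-87357880 (plus strand) for *Cd5l*, chr4:136886266-136886391 (minus strand) for *C1qb* and chr10:88683156-88683273 (minus strand) for *Spic*.
Cd5l: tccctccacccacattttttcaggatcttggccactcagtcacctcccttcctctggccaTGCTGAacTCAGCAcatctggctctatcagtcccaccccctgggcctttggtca
C1qb: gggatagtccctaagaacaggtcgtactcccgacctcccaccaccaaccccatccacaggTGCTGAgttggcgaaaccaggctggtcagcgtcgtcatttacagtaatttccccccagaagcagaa
Spic: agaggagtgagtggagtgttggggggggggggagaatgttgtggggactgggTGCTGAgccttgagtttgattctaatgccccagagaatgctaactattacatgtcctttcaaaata

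The 2 genes of iron and haem handling among the 10 behaved differently from each other. *Slc40a1* (chromosome 1 from 45908068 to 45926523, minus strand), for ferroportin, the iron exporter of animal cells, was at 825 and 676 CPM in SP Gr-1hi, 31.6 and 28.9 in SP Gr-1lo, 498 and 462 in BM Gr-1hi, and 22.6 and 20.2 in BM Gr-1lo. Every Gr-1hi library was far above every Gr-1lo library, and within a subset the SP libraries were above the BM libraries. The log2 FC between Gr-1hi and Gr-1lo cells was 4.63 (SE 0.14, adjusted p = 1.87e-07) in SP and 4.49 (SE 0.14, adjusted p = 8.84e-08) in BM in edgeR's quasi-likelihood test (Benjamini-Hochberg adjustment), or 24.8-fold and 22.5-fold. It was called in both tissues under every alternative, with log2 FCs of 4.03 to 4.77 in SP and 3.68 to 4.64 in BM. Between SP and BM, its log2 FC was 0.65 (SE 0.12, adjusted p = 0.00455) in Gr-1hi and 0.50 (SE 0.12, adjusted p = 0.0486) in Gr-1lo cells, below the 2-fold threshold.

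*Hmox1* (chromosome 8 from 75093621 to 75100589, plus strand), for the enzyme that opens the haem ring and frees its iron, was at 137 and 128 CPM in SP Gr-1hi, 86.7 and 95.9 in SP Gr-1lo, 95.4 and 86.2 in BM Gr-1hi, and 78.5 and 62.9 in BM Gr-1lo. SP Gr-1hi was above the other groups, SP Gr-1lo and BM Gr-1hi overlapped, and no call was made in any comparison. The log2 FC between SP and BM was 0.54 (SE 0.12, adjusted p = 0.0107) in Gr-1hi and 0.37 (SE 0.12, adjusted p = 0.139) in Gr-1lo cells by the same test. Between subsets it was 0.36 in BM and 0.54 in SP, and it turned to -0.45 and -0.06 when libraries were scaled by their totals. Relative to the median of all genes, the values under both scalings were 0.54 and 0.53 in BM, and 0.62 and 0.62 in SP. Per length, *Slc40a1* was first of the 10 genes in SP Gr-1hi at 168 ± 33.1 TPM (counts corrected for gene length and depth), with *Hmox1* next at 152 ± 16.1 TPM, a difference within the spread of the libraries. In SP Gr-1lo, *Hmox1* was first at 154 ± 6.53 TPM and *Slc40a1* sixth at 9.94 ± 0.914 TPM. In BM Gr-1hi the same pair led at 89.4 ± 8.03 and 86.9 ± 9.40 TPM, again within their spread, and in BM Gr-1lo *Hmox1* led at 124 ± 21.0 TPM.

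The apoptotic cell receptors were low and higher in SP. *Mertk* (chromosome 2 from 128698956 to 128802894, plus strand) was at 6.57 and 4.18 CPM in SP Gr-1hi, 2.57 and 2.33 in SP Gr-1lo, 1.87 and 1.53 in BM Gr-1hi, and 0.758 and 0.264 in BM Gr-1lo. The groups did not overlap, and BM Gr-1lo had 37 and 14 counts. The log2 FC between SP and BM was 2.27 (SE 0.43, adjusted p = 0.0189) in Gr-1lo and 1.66 (SE 0.41, adjusted p = 0.0151) in Gr-1hi cells in edgeR's quasi-likelihood test (Benjamini-Hochberg adjustment). The Gr-1lo call was lost without library 7, 8 or 12, where the log2 FCs were 2.19, 2.34 and 1.69 and the adjusted p 0.0772, 0.0852 and 0.0889. The Gr-1hi call was lost without library 5, 9 or 10, where the log2 FCs were 1.21, 1.76 and 1.44 and the adjusted p 0.089, 0.0648 and 0.0945. The estimate thus stayed above 2-fold in all 6 cases.

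*Axl* (chromosome 7 from 25757273 to 25788705, minus strand) was at 19.7 and 18.7 CPM in SP Gr-1hi, 12.1 and 15.3 in SP Gr-1lo, 11.4 and 9.54 in BM Gr-1hi, and 4.63 and 6.91 in BM Gr-1lo. The 4 groups followed this order without overlap. Its log2 FC between SP and BM was 1.25 (SE 0.20, adjusted p = 0.00932) in Gr-1lo cells and 0.87 (SE 0.21, adjusted p = 0.0130) in Gr-1hi cells by the same test, so only the former passed the 2-fold threshold. The Gr-1lo call was lost without library 8 (log2 FC 1.07, adjusted p = 0.0804) or library 11 (log2 FC 0.99, adjusted p = 0.0582). Between subsets the log2 FC was 0.86 in BM and 0.48 in SP. These fell to 0.053 and -0.12 when libraries were scaled by their totals. Of their relatives and ligands, *Tyro3* and *Gas6* did not pass the filter. *Pros1*, for the bridging protein S, was at 54.5 ± 4.19 CPM in SP Gr-1lo and 57.0 ± 5.03 in BM Gr-1lo. In Gr-1hi cells it was at 2.22 ± 0.0670 CPM in SP and 0.527 ± 0.481 in BM, the opposite order of subsets to *Mertk*.

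*Vcam1* (chromosome 3 from 116109949 to 116129688, minus strand), for a ligand of integrins that red pulp macrophages carry, was the exception among the 10. It was at 27.7 and 32.2 CPM in SP Gr-1hi, 38.1 and 25.9 in SP Gr-1lo, 18.7 and 13.3 in BM Gr-1hi, and 50.3 and 39.4 in BM Gr-1lo. BM Gr-1lo was the highest group and BM Gr-1hi the lowest, and the 2 SP groups overlapped. The log2 FC between SP and BM was -0.49 (SE 0.22, adjusted p = 0.273) in Gr-1lo and 0.90 (SE 0.23, adjusted p = 0.0202) in Gr-1hi cells in edgeR's quasi-likelihood test (Benjamini-Hochberg adjustment), neither of which was called. Between subsets it was -1.49 in BM (SE 0.23, adjusted p = 0.000477). In SP it was -0.09 (SE 0.23, adjusted p = 0.727), a value that changed sign with RLE scaling. An antisense gene whose exons overlap those of *Vcam1*, Gm43109, had 7 counts over all libraries.

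Whether the difference between subsets itself differed between tissues was tested as an interaction, the log2 FC of Gr-1hi against Gr-1lo in SP minus that in BM. Here 3 of the 10 genes were called, 2 lower and 1 higher, where 9.74% of all tested genes were called, 2% as lower and 7.74% as higher. *C1qa* (-1.49, SE 0.39, adjusted p = 0.0374) and *C1qc* (-1.96, SE 0.42, adjusted p = 0.0200) differed less between the subsets in SP than in BM, and *Vcam1* (1.39, SE 0.32, adjusted p = 0.0256) was lower in Gr-1hi cells by more in BM than in SP, by the same test. The estimate of *C1qb* was -1.07 (adjusted p = 0.0671), that of *Spic* -2.21 (adjusted p = 0.0605) and that of *Cd5l* -1.60 (adjusted p = 0.0551), and none of them was called. *Slc40a1* (0.14, SE 0.17) and *Hmox1* (0.17, SE 0.17) had estimates near 0. Leaving out single libraries changed these calls. The counts of genes called under the alternatives below are given without the share of all tested genes called in the same fit. They cannot be read against the 9.74% of the main fit. *C1qa* was lost without library 8, 9, 10, 11 or 12 (adjusted p from 0.0634 to 0.123), *C1qc* without library 8, 11 or 12 (0.0629 to 0.0707) and *Vcam1* without library 5, 6, 8, 10 or 11 (0.0708 to 0.0786). None of the 10 genes was thus called by edgeR without library 8, although 6 had an unadjusted p under 0.05, whereas 5 were called without library 7 and 6 by DESeq2 with all libraries. Without libraries 5 and 7, 4 genes were called, with *Spic* added (-2.74, adjusted p = 0.0195).

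Genes of related function were examined as 6 lists, beside the 3.84% and 14% of all tested genes that were called higher in SP in Gr-1lo and Gr-1hi cells. Between subsets, 6.56% of all tested genes were called higher and 10.1% lower in Gr-1hi cells of BM. In SP these shares were 4.44% and 2.93%. Of 11 tested markers of splenic macrophages other than the 10, 3 were higher in SP in Gr-1lo cells and 3 in Gr-1hi cells, and none was lower. *Itgad* was higher in SP by a log2 FC of 4.24 in Gr-1lo and 2.40 in Gr-1hi cells, at mean levels from 8.25 ± 0.480 CPM in SP Gr-1hi to 0.0709 ± 0.0736 in BM Gr-1lo. *Treml4* was higher in SP Gr-1lo cells by a log2 FC of 3.0. Between subsets, 3 of the 11 were called higher in Gr-1hi cells of BM and none lower, *Itgad* and *Treml4* by log2 FCs of 4.45 and 3.89. In SP 1 was called higher, *Marco* (named after its values were seen) at the low level given above, and 1 lower, *Siglec1* by a log2 FC of -3.14. The median log2 FC of this list between SP and BM was 2.18 in Gr-1lo and 0.997 in Gr-1hi cells.

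Of 27 tested genes of iron and haem handling other than the 10, 2 were higher in SP in Gr-1lo cells, 4 in Gr-1hi cells, and none was lower, a share in Gr-1hi cells close to the 14% of all tested genes. *Ltf* and *Lcn2*, for lactoferrin and lipocalin 2, granule proteins of neutrophils that bind iron or its carriers, were the 2 in Gr-1lo cells, with log2 FCs of 2.02 and 1.34. In Gr-1hi cells the called genes included *Slc11a2*, for the iron importer DMT1 (log2 FC 2.61), *Hfe*, for the regulator mutated in haemochromatosis (2.33), and *Slc39a14*, for a metal importer (2.01). The list's median log2 FC was 0.09 in Gr-1lo and -0.05 in Gr-1hi cells, close to that of all genes. Between subsets in BM, 2 were higher and 6 lower in Gr-1hi cells, beside 6.56% and 10.1% of all tested genes, the former a similar share. *Steap3*, for a ferrireductase of endosomes, was at 0.180 ± 0.0958 CPM in BM Gr-1hi and 12.1 ± 0.338 in BM Gr-1lo. In SP 1 was higher and 2 lower, and *Steap3* was again the lowest, with a log2 FC of -5.30. *Fth1*, for ferritin heavy chain and named after its values were seen, was at 1801 ± 23.7 CPM in SP Gr-1hi and 628 ± 87.0 in SP Gr-1lo.

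Of 16 tested complement genes other than C1q, 3 were higher in SP in Gr-1lo and 5 in Gr-1hi cells, and none was lower. *Cr2*, for a complement receptor that B cells carry, was at 45.0 ± 18.05 CPM in SP Gr-1hi, 5.82 ± 0.599 in SP Gr-1lo and at most 0.245 CPM on average in the BM groups. *Cd55*, for a protein that shields cells from complement, was higher in SP Gr-1lo cells by a log2 FC of 2.60. *Cfb*, for factor B (log2 FC 3.16), and *C4b*, for a C4 chain (2.19), were higher in SP Gr-1hi cells. Between subsets, *Cd55* and *C5ar1*, for the C5a receptor, were higher in Gr-1hi cells in both tissues, by log2 FCs of 7.93 and 5.40 in BM and 4.56 and 4.23 in SP.

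Of 21 tested genes of apoptotic cell uptake other than the receptors above, 3 were higher in SP in Gr-1lo cells and 10 in Gr-1hi cells, and none was lower. *Mfge8*, for a bridging protein, had a log2 FC of 3.81 in Gr-1hi cells and -0.81 in Gr-1lo cells, the latter without a call. *Havcr2*, for TIM-3, was higher in SP in both subsets, by 2.10 in Gr-1lo and 2.95 in Gr-1hi cells, and *Abca1*, for a cholesterol exporter, by 2.87 in Gr-1hi cells. Of the 6 genes for integrin chains that bind VCAM1 or pair with such chains, 2 were higher in SP in Gr-1lo and 4 in Gr-1hi cells, including *Itga9* (log2 FC 3.85 and 2.41) and, in Gr-1hi cells, *Itga4* (1.95). Of 14 regulators of macrophage identity, 3 were higher in SP in Gr-1lo cells and 10 in Gr-1hi cells, and none was lower. *Spib*, for a relative of SpiC, was higher by 2.62 and 3.32, *Maf* by 1.02 in Gr-1lo cells, and *Irf4* and *Irf8* by 3.03 and 2.63 in Gr-1hi cells. *Irf8* and *Klf4* were lower in Gr-1hi than in Gr-1lo cells of BM, by log2 FCs of -5.16 and -6.28.

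**Figure D4:**
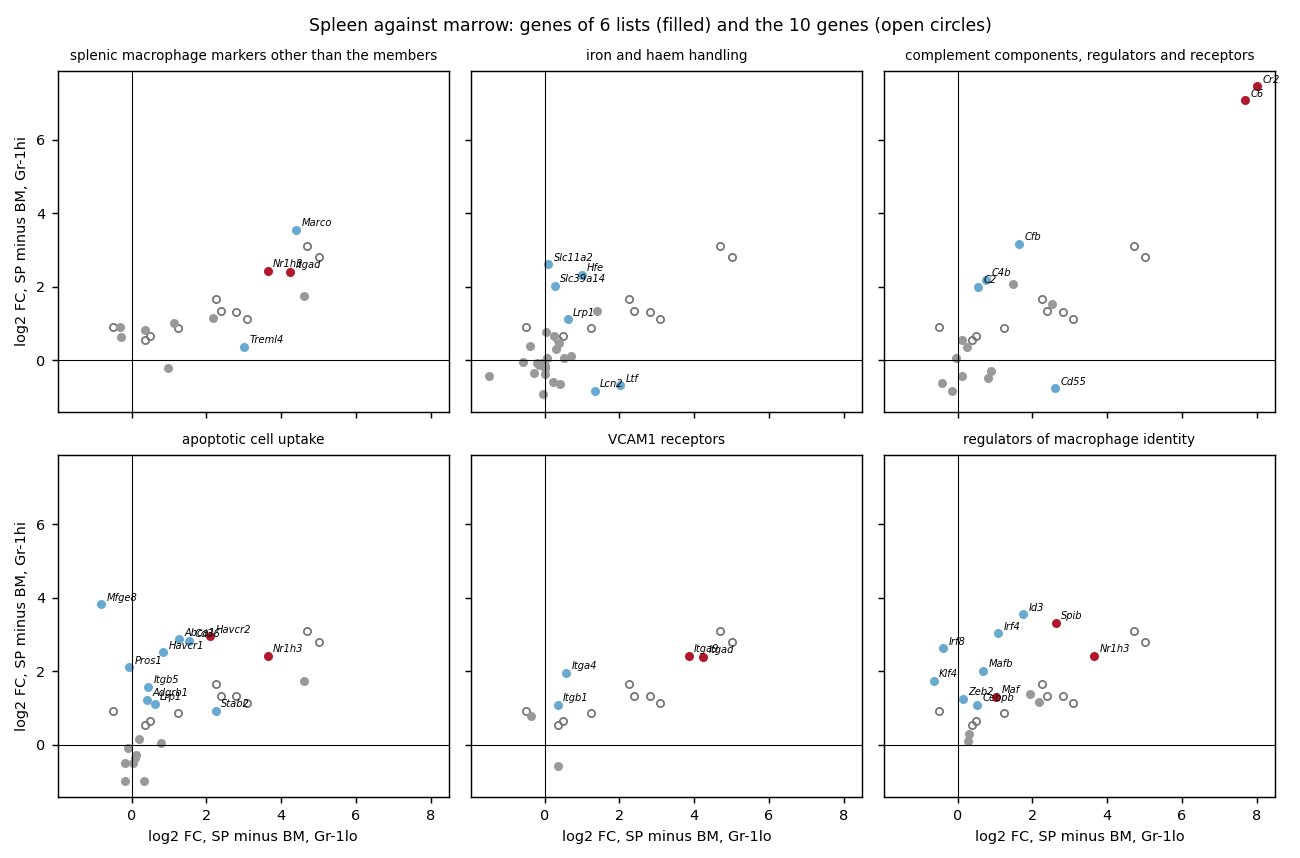
Log2 FC between SP and BM in Gr-1lo (horizontal axis) and Gr-1hi cells (vertical axis) for the tested genes of 6 lists (filled points, grey where not called, blue where called in 1 subset and red where called in both) beside the 10 genes (open circles). Named points are the called genes, all of them higher in SP in the subset in which they were called.

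Markers of other cell types moved with the same comparisons. The calls between SP and BM given here stand beside the shares of all tested genes. These were 3.84% higher and 0.215% lower in Gr-1lo cells, and 14% higher and 1.48% lower in Gr-1hi cells. Summed over 8 B cell markers, the level was 339 to 501 CPM in SP Gr-1hi, 62.5 to 78.8 in SP Gr-1lo, 14.3 to 17.8 in BM Gr-1hi and 7.85 to 9.69 in BM Gr-1lo. All 8 were called higher in SP in Gr-1hi cells and 7 of 8 in Gr-1lo cells, and *Cr2* had no count in library 11. The 8 T cell markers, none of which was at 0 in any library, summed to 62.0 to 101 CPM in SP Gr-1hi, 21.3 to 32.5 in SP Gr-1lo, 6.56 to 9.87 in BM Gr-1hi and 2.05 to 2.10 in BM Gr-1lo, and 8 of 8 and 7 of 8 were called higher in SP in Gr-1lo and Gr-1hi cells. The order of the groups in these sums was that of *C1qb*, *Spic*, *Cd5l*, *Mertk* and *Axl*.

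Dendritic cell markers (8 genes) summed to 101 to 102 CPM in SP Gr-1hi, 19.4 to 24.3 in SP Gr-1lo, 26.8 to 40.5 in BM Gr-1hi and 5.48 to 9.06 in BM Gr-1lo, the order of *C1qa* and *C1qc*. *Itgax* alone, at 82.9, 13.8, 27.5 and 0.866 CPM on average in these groups, made up most of the sum except in BM Gr-1lo. The place of BM Gr-1hi above SP Gr-1lo in the sum rested on this gene. *Clec9a* (3.23 and 1.32 CPM on average in BM Gr-1hi and SP Gr-1lo) and *Siglech* (1.13 and 0.319 CPM) had the same order. *Flt3*, *Zbtb46*, *Xcr1*, *Cd209a* and *Ccr7* had the opposite order. In Gr-1lo cells 3 of 8 were called higher in SP, and in Gr-1hi cells 4 higher and 1 lower. *Zbtb46* was at 0 in library 9, *Cd209a* in library 10, *Xcr1* in libraries 10 and 12 and *Ccr7* in libraries 11 and 12. Erythroid markers (8 genes, 6 tested) summed to 217 and 731 CPM in libraries 5 and 6, 166 to 232 in SP Gr-1lo, 35.7 to 43.8 in BM Gr-1hi and 7.70 to 8.29 in BM Gr-1lo, and 6 and 5 of the 6 were called higher in SP in Gr-1lo and Gr-1hi cells. *Klf1* was at 0 in libraries 5, 9 and 10 and *Epor* in libraries 7, 10, 11 and 12.

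Plasma cell markers (8 genes, 7 tested) summed to 288 to 392 CPM in SP Gr-1hi, 321 to 332 in SP Gr-1lo, 101 to 102 in BM Gr-1hi and 231 to 256 in BM Gr-1lo, with 5 and 7 of 7 called higher in SP in Gr-1lo and Gr-1hi cells. *Xbp1* alone made up most of this sum in each group, at 225, 261, 91.4 and 228 CPM on average in this order of groups. NK cell markers (8 genes, 7 tested) summed to 12.7 to 16.6, 16.6 to 32.6, 2.64 to 3.18 and 11.1 to 33.2 CPM in the same order of groups, with 3 and 4 called higher in SP. *Klrk1* made up most of the NK cell sum in Gr-1lo cells, at 19.5 CPM in SP and 21.6 CPM in BM on average. The plasma cell gene *Tnfrsf17* was at 0 in libraries 6, 9, 10 and 11, the NK cell genes *Ncr1*, *Klra8* and *Prf1* in library 11 and *Klra4* in libraries 10 and 12. Stromal and endothelial markers (8 genes, 4 tested), cells that also express *Vcam1*, summed to 38.5 to 45.7, 24.7 to 27.9, 31.1 to 34.8 and 24.5 to 38.9 CPM, and none was called between SP and BM at these thresholds. *Pecam1* made up most of that sum in each group, at 37.6, 24.9, 26.6 and 31.0 CPM on average in the same order. Platelet markers (8 genes, 4 tested) summed to 9.18 to 116 CPM over all libraries, highest in BM Gr-1hi, and none was called between SP and BM. *Itgb3* alone made up most of the platelet sum in each group, at 106 CPM on average in BM Gr-1hi. *Pf4*, *Ppbp*, *Gp1ba* and *Tubb1* did not pass the filter. Neutrophil markers (10 genes) summed to 79050 to 170300 CPM in Gr-1hi and 5326 to 13020 in Gr-1lo libraries, with 4 of 10 called higher in SP in Gr-1lo cells and 2 lower in SP in Gr-1hi cells, and none was at 0. Monocyte markers (8 genes) summed to 749 to 1719 CPM in Gr-1hi and 6416 to 9951 in Gr-1lo libraries. Of these, 1 of 8 was called higher in SP, in Gr-1hi cells, a share close to the 14% of all tested genes. The part that any of these cells had in the levels of the 10 genes was not tested.

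**Figure D5:**
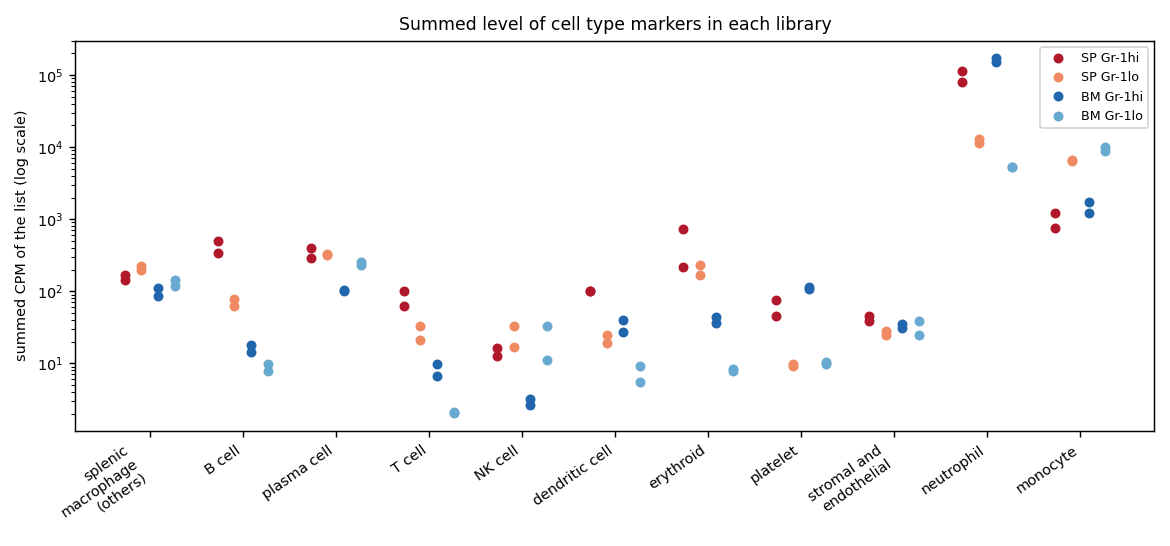
Summed level of each list of cell type markers (vertical axis, TMM-normalized CPM on a log scale) with 1 point per library, coloured by group. B cell, T cell and erythroid sums are higher in both SP groups than in both BM groups, and the neutrophil and monocyte sums separate Gr-1hi from Gr-1lo libraries.

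Finally, the genes most like 3 of the profiles were listed by Pearson's r of log2(CPM + 1) over the 8 libraries among 7280 genes with at least 5 CPM in 1 group, as a description in which the points share their libraries and groups. Closest to the mean of the C1q chains were *S1pr1* (r = 0.987), for a receptor that guides lymphocytes out of tissues, *Itgax* (0.985), for CD11c, Gm29094, *Cd300a* and *Tgm2*. *Itgax*, also one of the dendritic cell markers, was at 82.9 CPM on average in SP Gr-1hi, 13.8 in SP Gr-1lo, 27.5 in BM Gr-1hi and 0.866 in BM Gr-1lo. Closest to *Slc40a1* were *Nsd3*, *Fam122a*, *Nlrp12*, *Tcta* and *Fem1c*, all at r of 0.9986 or more, and *Nlrp12*, for a sensor of the NLR family, was at 364 and 226 CPM in SP and BM Gr-1hi and 3.76 and 2.77 in SP and BM Gr-1lo. Closest to *Axl* were *Rgl1* (r = 0.983), *Il7r*, *Abcg3*, *Nod1* and *Tnfaip3*. Among the 10 genes themselves, *C1qa* and *C1qc* were the most alike (r = 0.986), and *Vcam1* and *Slc40a1* the least (r = -0.63).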

How the data were processed

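The table deposited by the authors holds raw read counts per gene for 54188 genes in 8 libraries, without normalization. According to the paper and the submitters' processing notes, reads were checked with FastQC, filtered with Sickle, aligned to GRCm38 with STAR and counted with featureCounts, with a library kit that keeps strand. Groups were taken from the labels.

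The counts were tested here in R 4.3.3 (edgeR 4.0.16) after the filterByExpr filter and TMM scaling. A single robust quasi-likelihood model with 4 group terms covered all 8 libraries, which leaves 4 residual degrees of freedom. Benjamini-Hochberg adjustment was over all 17650 genes tested. Thresholds for tissues and subsets are those of the study, and the interaction, which the study did not test, took the threshold for tissues. The study tested quantile-normalized TPM, and here the counts were tested. Each SE was derived from the log2 FC and the F statistic. TPM used exon lengths of GENCODE M21 on the same build, which held 53947 of 54188 identifiers.

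The genes and lists were chosen with earlier results of these data known. All 10 genes are named in each comparison, along with up to 3 called genes of each list with the largest log2 FC. These list genes had 5 CPM or more in at least 1 group, but not always in the groups compared. In SP Gr-1lo, *Cd55* was at 3.20, *Itga9* at 1.18, *Spib* at 4.63 and *Itgad* at 1.36 CPM on average. In SP Gr-1hi, *Slc11a2* was at 2.52 and *Slc39a14* at 3.81 CPM, and *Itgad* was at 1.56 CPM in BM Gr-1hi. Also named are the 5 genes most like the C1q, *Slc40a1* and *Axl* profiles, marker genes with their levels (a few list genes are not reported here), and *Ly6g*, *Itgam*, *Xist* and *Ddx3y* as checks. Alternatives were RLE and upper-quartile scaling, DESeq2 1.42.0, no filter, a fit of the 4 libraries compared, leaving out each library, and leaving out libraries 5 and 7. A 2-fold call rule between subsets, scaling by library totals and the C1q ratios were added after the data were seen.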

Additional observations from a re-analysis of the deposited data

Results flagged for a closer look

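Among the genes, 3 stood out because the difference between Gr-1hi and Gr-1lo cells was not the same in SP as in BM, by the interaction term of edgeR's quasi-likelihood model. The log2 FC in SP minus that in BM was -1.49 for *C1qa*, -1.96 for *C1qc* and 1.39 for *Vcam1*. *C1qa* went from a log2 FC of 3.31 in BM to 1.82 in SP, *C1qc* from 3.53 to 1.57, and *Vcam1* from -1.49 to -0.09. The calls of all 3 were lost when single libraries were left out. Groups of 2 libraries are too small for a check of single outlying libraries.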

How the results depend on the processing

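Over the alternatives, 677 of the values for single genes kept their direction and their side of the threshold, 29 lost their call, 24 gained one and 10 changed sign. Between SP and BM no gene changed sign, and leaving out each library in turn gave 5 to 7 genes called in Gr-1lo and 4 to 6 in Gr-1hi cells. Between subsets, leaving out each library gave 4 to 5 genes in BM and 1 to 2 in SP. The 2 in SP came without library 7 and also without libraries 5 and 7 together, through *Cd5l*. With the 2-fold rule, added after the data were seen, 8 were called in BM and 5 in SP. Other counts of genes called under an alternative are given without the share of all tested genes called in that fit. With libraries scaled by their totals, 2 were called in BM, without *C1qa* and *C1qc*. The additional gene in BM when single libraries were left out was *Spic*. The interaction gave 6 genes with DESeq2 and 6 without the filter, and 0 (without library 8) to 5 (without library 7) when each library was left out, with 1 without library 11 or 12. The log2 FC of *Vcam1* between subsets in SP turned to 0.039 with RLE scaling, 0.037 with DESeq2 and 0.30 without libraries 5 and 7, and ranged from -0.35 to 0.21 (without library 7) with each library left out. With library totals, that of *Hmox1* turned to -0.45 in BM and -0.063 in SP. That of *Axl* fell to 0.053 in BM and turned to -0.12 in SP. The interaction of *Slc40a1* ranged from -0.11 (without library 5) to 0.22 with each library left out and also fell below 0 without library 10, and that of *Hmox1* from -7.82e-05 (without library 10) to 0.33. The cause was not tested. Of all tested genes called between subsets, the share that was higher in Gr-1hi cells went from 39.3% to 17.5% in BM and from 60.2% to 31.5% in SP with library totals, and that of positive interactions from 79.5% to 90.1%. *C1qc* and *Mertk* between SP and BM depended on single libraries, as given above. Of the counts for the other lists, 388 stayed within 1.5 times and 56 did not. With 2 libraries a group, leaving out 1 assumes that the lone library varies like the others. No paired analysis was possible because the library numbers, 5 to 12, are each used once, so no 2 groups share a replicate number, and although the study calls the BM cells autologous, no label links libraries to mice. Genes near 0 in BM Gr-1lo, such as *Cd5l* with 6 and 2 counts, have the least precise folds.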
